A study of Mus musculus with 4 samples.

Results

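The Zic genes encode transcription factors with C2H2 zinc fingers, and 4 of them, Zic1, Zic2, Zic4 and Zic5, were measured in newborn cerebella with and without Smarca5. Members were the array features whose annotated symbol was Zic1, Zic2, Zic4 or Zic5 or a RefSeq synonym of one. This gave 6 of 38880 features, which belonged to 4 of 21476 gene symbols. Zic4 had 3 features, and Zic1, Zic2 and Zic5 had 1 each. Every feature was listed under the gene's own name.

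Zic proteins are relatives of the Gli factors, the transcriptional effectors of Sonic hedgehog signalling, with which they share their type of zinc finger. In the cerebellum they are known from granule cells and their progenitors, which arise from the upper rhombic lip. Mouse mutants of Zic1 have a small cerebellum, Zic1 and Zic4 act together in cerebellar growth, and heterozygous loss of the human ZIC1 and ZIC4 pair has been linked to Dandy-Walker malformation. Zic2 is known for its role in forebrain midline development and holoprosencephaly, and Zic5 for its role in neural tube closure and neural crest formation. Zic genes are also expressed in the roof plate, the dorsal spinal cord and the meninges, so a cerebellar ratio can hold signal from more than 1 cell type.

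The study compared cerebella dissected on postnatal day 0 from mice with a conditional knockout (cKO) of Smarca5, the gene of the Snf2h chromatin remodelling ATPase, with cerebella of wild-type mice, both labelled as strain C57Bl/6. Each of 4 two-colour arrays carried RNA of both genotypes. The cKO RNA was sample 227 on replicate 1, sample 225 on replicate 2 and sample 231 on replicates 3 and 4, while the wild-type RNA was sample 224 on replicates 1 and 4, sample 229 on replicate 2 and sample 230 on replicate 3. Dyes were swapped, with cKO RNA in Cy5 on replicates 1 and 3 and in Cy3 on replicates 2 and 4. The sources used here do not give the driver of the deletion, or say if animals were pooled for a sample. Since nothing says that the RNA samples came from separate animals, p-values measure only the spread between these samples and arrays, part of which may be technical.

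Each value is a log2 ratio, cKO over wild type, centred on each array's median, on a log base taken to be 2. That direction is likely but is not stated with the deposited ratios, and it rests in part on the sign of the Smarca5 feature, which had -0.36, -1.16, -1.43 and -0.75 on replicates 1 to 4. A ratio holds no level, so neither the abundance of a Zic transcript nor the tissue label could be checked against expression levels. In whole cerebella, fewer cells of a type and less RNA per cell cannot be told apart. Arrays correlated over all features between -0.21 and 0.16 (Pearson; a description across features), and all arrays whose cKO RNA carried opposite dyes correlated below 0. With 4 arrays, precision is limited throughout by their number.

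Zic1 and Zic4 are neighbours on mouse chromosome 9 and are read away from each other. Their RefSeq starts in GRCm38.p6 lie 3204 bases apart, and the annotated extents of the genes overlap by 138 bases at their 5′ ends. The array features are given without sequence or strand, so it is not known whether any lies in that overlap. The 250 bases before each RefSeq start are shown because the pair is compared below, with CpG dinucleotides in capitals. The Zic1 window is chr9:91365769-91366018 on the minus strand and the Zic4 window is chr9:91368722-91368971 on the plus strand, both printed 5′ to 3′ on the gene's strand. Both windows lie within the annotated extent of Zic4, which has further starts closer to Zic1.
Zic1: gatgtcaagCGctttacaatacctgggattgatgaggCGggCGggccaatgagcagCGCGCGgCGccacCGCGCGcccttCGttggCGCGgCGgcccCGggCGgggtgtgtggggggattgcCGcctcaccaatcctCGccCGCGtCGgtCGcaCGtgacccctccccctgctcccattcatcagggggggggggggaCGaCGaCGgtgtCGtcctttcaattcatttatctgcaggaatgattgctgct
Zic4: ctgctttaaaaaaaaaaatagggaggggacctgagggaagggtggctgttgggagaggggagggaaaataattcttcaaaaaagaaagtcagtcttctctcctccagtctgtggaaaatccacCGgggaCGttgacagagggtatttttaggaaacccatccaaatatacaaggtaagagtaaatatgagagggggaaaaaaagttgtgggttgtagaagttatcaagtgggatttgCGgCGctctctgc
The Zic1 window held 27 CpG dinucleotides and 66% G and C, and 91.4% of 32851 such windows in RefSeq held fewer CpGs. The Zic4 window held 4 CpGs and 44.4% G and C, and 37.8% of windows held fewer, against a median of 6. No reading of the promoters was measured on these arrays, and the windows are given as context only. Zic2 and Zic5 form the other neighbouring pair, on chromosome 14.

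No Zic gene passed the test for a difference between cKO and wild-type cerebella. Their fitted log2 ratios were close together, from -0.24 for Zic4 to -0.13 for Zic2, which is 0.847 to 0.912 times the wild-type level. Replicate 4 had a weight of 0 in these estimates, through the correlation assumed between arrays that share an RNA sample. The estimates thus rest on replicates 1 and 3 (cKO RNA in Cy5) and replicate 2 (cKO RNA in Cy3), and lean to Cy5. Means with cKO RNA in Cy5 were -0.135, -0.195, -0.28 and -0.315 for Zic1, Zic2, Zic4 and Zic5. With cKO RNA in Cy3 they were -0.13, -0.095, -0.06 and 0.3. Plain means over the 4 arrays ran from -0.17 for Zic4 to -0.0075 for Zic5. All 4 fitted ratios lay below 0, as did 50.8% of all genes, and their median was -0.15 against -0.0038 over all genes. The limma fit with Benjamini-Hochberg adjustment called 0 of the 4 Zic genes at an adjusted p under 0.05. It called 0.0% of the 21476 genes higher and 0.0% lower. The deleted gene itself, Smarca5, was not called either, at a fitted ratio of -0.98 or 0.506-fold (limma p 0.0123). A gene that is not called may therefore still differ. An unadjusted limma p under 0.05 was reached by 0 Zic genes and by 337 genes in all (1.57%), with 167 on the higher side (0.778%) and 170 on the lower side (0.792%). A calibrated test would give a share of about 0.05 with no differences at all. The limma p-values here thus look too high and the intervals too wide, for a reason that was not tested. With arrays fitted as independent, 1061 genes had such a p and still 0 Zic genes did.

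Zic1, which is needed for normal cerebellar size, had log2 ratios of -0.15, -0.22, -0.12 and -0.04 on replicates 1 to 4. It lay below 0 on every array, by little each time, and 5.62% of all genes lay below 0 on all 4 arrays. The arrays agreed closely on Zic1, with a mean of -0.13 ± 0.07 (SD, n = 4 arrays, which used 3 RNA samples of each genotype). Only 1.47% of the features with a symbol had a smaller SD over the arrays, where the median SD was 0.446. The mean was -0.135 with cKO RNA in Cy5 and -0.13 with cKO RNA in Cy3. The fitted ratio of Zic1 was -0.16 ± 0.20 (SE), or 0.893-fold (limma p 0.441, adjusted p 1). Its 95% interval ran from 0.637-fold to 1.25-fold. The fit takes its error partly from the spread of all genes, which is wider than that of Zic1. With the ratios of the dye-flip arrays turned, the fitted ratio of Zic1 was -0.02.

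Zic2 had log2 ratios of -0.48, -0.01, 0.09 and -0.18 on replicates 1 to 4. Replicate 1 was lowest, replicates 2 and 3 lay on either side of 0, and the mean was -0.145 ± 0.25 (SD, n = 4 arrays). Its fitted ratio was -0.13 ± 0.22 (SE), or 0.912-fold, with a 95% interval from 0.626-fold to 1.33-fold (limma p 0.567, adjusted p 1). Without replicate 1 the fitted ratio of Zic2 was -0.03.

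Zic4, the neighbour of Zic1, was read by 3 features that did not move together. The feature UT16534 had -0.23, 0.30, -0.39 and -0.01 on replicates 1 to 4, and so lay below 0 on both arrays with cKO RNA in Cy5. The feature UT17365 had 0.14, -0.57, -0.12 and -0.56, and it was the arrays with cKO RNA in Cy3 that were low here. The feature UT25749 had -0.39, -0.19, -0.71 and 0.66, the widest range of the 6 Zic features. Each of the 3 features was below 0 on 3 arrays and above 0 on 1, but the array above 0 was a different one each time. By dye, UT16534 and UT25749 went the same way and only UT17365 went the other. The means by dye were -0.31 for cKO RNA in Cy5 and 0.145 for cKO RNA in Cy3 for UT16534. They were 0.01 for cKO RNA in Cy5 and -0.565 for cKO RNA in Cy3 for UT17365. For UT25749 they were -0.55 for cKO RNA in Cy5 and 0.235 for cKO RNA in Cy3.

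On each array the features of Zic4 spanned 0.53, 0.87, 0.59 and 1.22 on replicates 1 to 4, a mean of 0.80. This is an ordinary disagreement for these arrays, since the median of that mean over 1248 genes with 3 features was 0.85, and 44.9% of those genes had a smaller one. Averaged over its features, Zic4 had log2 ratios of -0.16, -0.15, -0.41 and 0.03, with a mean of -0.17 ± 0.18 (SD, n = 4 arrays). Its fitted ratio of -0.24 ± 0.23 (SE), or 0.847-fold, was the lowest of the 4 Zic genes (limma p 0.332, adjusted p 1). The 95% interval ran from 0.575-fold to 1.25-fold. Fitted one by one, the features gave -0.11, -0.18 and -0.43, in the order in which they are named here, and the adjusted p was 1 for each. The gene's fitted ratio was -0.10 without replicate 3 and -0.14 with dye-flip columns turned.

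Zic5, the neighbour of Zic2, had log2 ratios of -0.81, 0.20, 0.18 and 0.40 on replicates 1 to 4. Replicate 1 was far below 0 and the other 3 arrays were above 0, and the mean was -0.0075 ± 0.54 (SD, n = 4 arrays). The fitted ratio was -0.14 ± 0.37 (SE), or 0.905-fold, with the widest interval of the 4 Zic genes, from 0.484-fold to 1.69-fold (limma p 0.710, adjusted p 1). Its direction rested on replicate 1, and without that array the fitted ratio of Zic5 was 0.25. With all arrays fitted as independent the ratio was -0.0075, and with dye-flip columns turned it was -0.28.

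**Figure D1:**
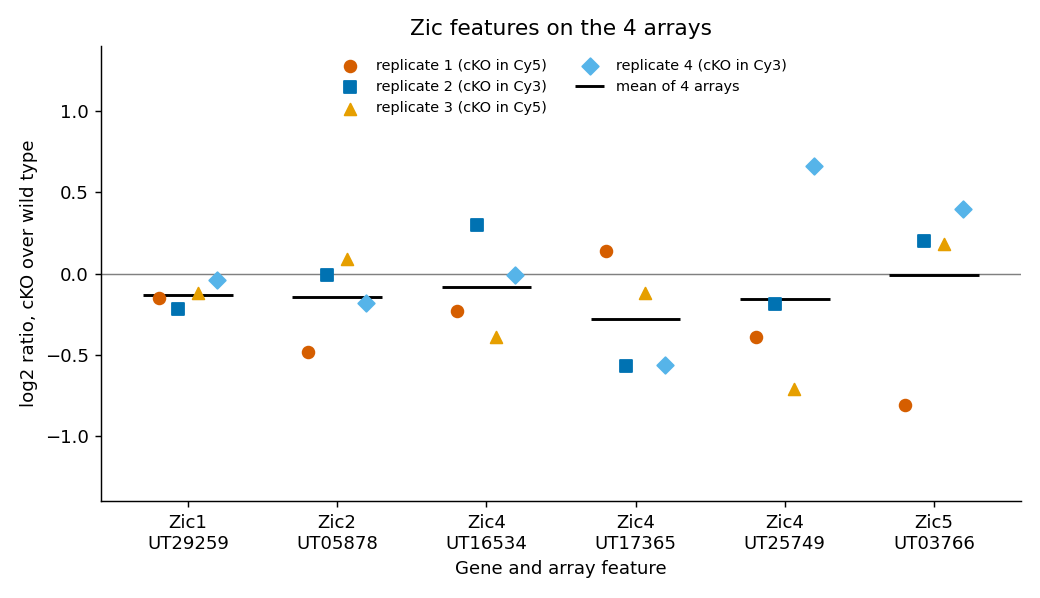
Log2 ratio of cKO over wild type (vertical axis) for each of the 6 Zic features (horizontal axis) on the 4 arrays (points), with the mean of the arrays as a bar. The 4 values of Zic1 sit within -0.22 and -0.04, the 3 features of Zic4 do not move together, and replicate 1 of Zic5 lies at -0.81.

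**Figure D2:**
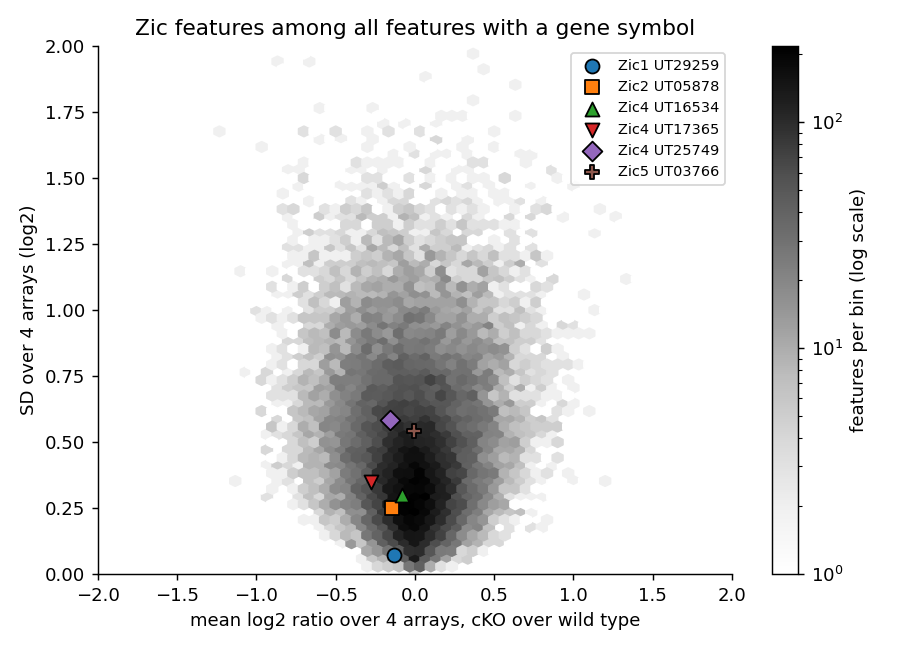
Mean log2 ratio over the 4 arrays (horizontal axis) against the SD over the arrays (vertical axis) for all features with a gene symbol (grey bins, shaded by count on a log scale) and the 6 Zic features (coloured markers). Features beyond the axis limits are not drawn. Zic1 lies at an SD of 0.07, near the lower edge, while Zic5 and UT25749 of Zic4 have SDs of 0.54 and 0.59, above the median of 0.446.

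Over the 6 features and 4 arrays, 17 of 24 values were below 0 and 7 above, and they ranged from -0.81 to 0.66. Their median size without sign was 0.21, against 0.32 over all features with a symbol. Replicate 1 was the array on which the median of the Zic genes was lowest, at -0.32, with all 4 genes below 0. The medians were -0.08, -0.015 and -0.005 on replicates 2, 3 and 4. The neighbours Zic2 and Zic5 were both at their lowest on replicate 1, whereas the neighbours Zic1 and Zic4 were at -0.15 and -0.16 there. Zic1 was lowest on replicate 2, at -0.22, and Zic4 on replicate 3, at -0.41.

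Replicate 1 stood apart in genes of the hindbrain and spinal cord. The 15 Hox genes of the fixed list, which are active behind the cerebellum, had a median log2 ratio of 2.98 on replicate 1, against -0.20, -0.51 and -0.285 on replicates 2 to 4. Their fitted ratios ran from -0.0067 for Hoxd3 to 1.41 for Hoxa5, with a median of 0.79, which was -0.41 without replicate 1. Their part in the Zic ratios of that array was not tested. Without replicate 1 the median of the fitted Zic ratios was -0.085.

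Genes of other cell types that express Zic genes or neighbour the cerebellum had median fitted ratios of either sign, and those of the meninges, microglia and Purkinje cell lists changed sign when 1 array was left out. The 15 genes of meninges and fibroblasts had a median fitted ratio of 0.03, with 7 below 0 and 8 above, from -0.64 for Lum, a matrix proteoglycan, to 0.75 for the forkhead gene Foxc2. The medians of that list were 0.01, 0.14, -0.265 and -0.18 on replicates 1 to 4. Choroid plexus genes had a median of 0.05 over 10 genes, from -0.26 for Otx2 to 0.83 for Kl, the klotho gene, microglia genes 0.07 over 10, from -0.32 for Csf1r to 0.44 for Ctss, and Purkinje cell genes -0.03 over 9, from -0.48 for Rora to 0.26 for Calb1. No gene of these lists was called, as was true of all 21476 genes.

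Relatives and binding partners of the Zic factors were not called either, like every other gene on these arrays. Of 10 listed genes 8 were measured, 5 with a fitted ratio below 0 and 3 above, and the median was -0.11. Gli2, the main activator of Sonic hedgehog targets in granule cell progenitors, had log2 ratios of -0.26, -0.335, 0.00 and -0.66 on replicates 1 to 4 and a fitted ratio of -0.20 ± 0.27 (SE, limma p 0.493). Gli3, the main repressor of the pathway, had 0.09, -0.59, 0.07 and 0.01 and a fitted ratio of -0.14 ± 0.24 (SE, limma p 0.566), so that only replicate 2 was far from 0. The ends of the list were Glis2 at -0.68 and Glis1 at 0.43. Mdfi, whose product I-mfa binds Zic proteins and keeps them out of the nucleus, was the 1 member above 0 on all 4 arrays, at 0.45, 0.27, 0.15 and 0.26, and was named after its values were seen. Its fitted ratio was 0.29 ± 0.20 (SE, limma p 0.201), and 5.91% of all genes lay above 0 on every array. The Sonic hedgehog list had a median of -0.14 over 12 genes, with 8 below 0 and 4 above, from -1.0 for the cyclin gene Ccnd2 to 0.41 for Shh itself, the ligand that Purkinje cells release.

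Roof plate and dorsal midline genes, which include the Bmp and Wnt signals that induce Zic genes in the dorsal neural tube, had a median fitted ratio of 0.05 over 23 genes, with 9 below 0 and 14 above. The list ran from -0.57 for the homeobox gene Msx2 to 0.40 for Wnt1. Msx2 was the 1 member with an unadjusted limma p under 0.05 (0.0373, adjusted p 1). On the lower side, where Msx2 lay, 0.792% of all genes had such a p. GABAergic progenitor and interneuron genes had a median of -0.02 over 13 genes, with 9 below 0 and 4 above. They ran from -0.43 for Neurog1 to 0.54 for the glycine transporter gene Slc6a5, which had 3.92 on replicate 1.

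Genes of the upper rhombic lip and granule cell progenitors, the lineage in which Zic1 is best known, had a median fitted ratio of -0.19 over 25 genes. Of these 20 were below 0 and 5 above, 0 were called, and 3 had an unadjusted limma p under 0.05 on the lower side, where the share over all genes was 0.792%. The list ran from -0.95 for Neurod1, a basic helix-loop-helix factor of differentiating granule neurons, to 0.43 for Nfix. Part of this list was known from earlier results of these data to lie below 0, so its count is no independent evidence. On replicates 1 to 4 the medians were -0.32, -0.08, -0.015 and -0.005 for the Zic genes, against -0.28, -0.02, -0.17 and -0.17 for this list.

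In a comparison chosen after the values were seen, the Zic genes lay above Pax6 and Neurod1 on every array. Pax6, a paired-box factor active in granule cell progenitors, had log2 ratios of -0.89, -0.40, -0.49 and -0.94 on replicates 1 to 4. All 4 Zic genes were higher than Pax6 on all 4 arrays, by a mean of 0.51 to 0.67. Neurod1 had -1.13, -0.78, -0.95 and -1.61, and all 4 Zic genes were higher than it on all 4 arrays too, by 0.945 to 1.11. Most genes lie above both, since 3.91% of all genes had a lower fitted ratio than Pax6 and 0.74% a lower one than Neurod1. Lying above them is therefore no trait of the Zic genes. Because these pairs were chosen for their values, the differences are given as a description. An exact sign-flip test over the 4 arrays gave an unadjusted p of 0.125 for each pair. That is the lowest p this test can give with 4 arrays, so it cannot decide whether they differ. The differences are taken within an array, and on replicates 2 and 4 they would change sign if the dye-flip columns were turned.

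The Zic genes overlapped more with Barhl1 and Atoh1. Barhl1, a homeobox gene of granule cell progenitors, had -0.94, -0.07, 0.03 and -0.64 on replicates 1 to 4, with a fitted ratio of -0.33 ± 0.27 (SE, limma p 0.277). Zic2 and Zic5 were above Barhl1 on all 4 arrays, and Zic1 and Zic4 on 2 of 4. Of all genes, 12.6% had a lower fitted ratio than Barhl1. Atoh1, which specifies the rhombic lip lineage, had 0.11, 0.61, -0.20 and -1.57, a range that covers every value of the 4 Zic genes. Mean differences of the Zic genes from Atoh1 were 0.09 to 0.255.

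**Figure D3:**
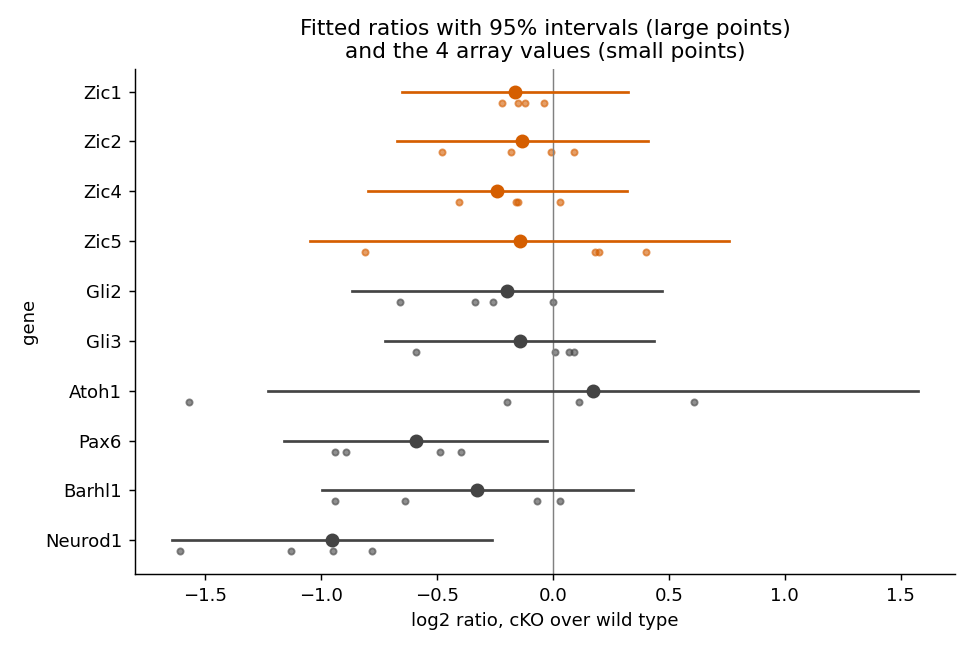
Fitted log2 ratio of cKO over wild type (horizontal axis; large points) with its 95% interval (lines) and the 4 array values (small points) for the Zic genes (orange) and 6 related genes (grey). The intervals of the 4 Zic genes all include 0, while those of Pax6 and Neurod1 lie below 0 before adjustment over all genes.

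**Figure D4:**
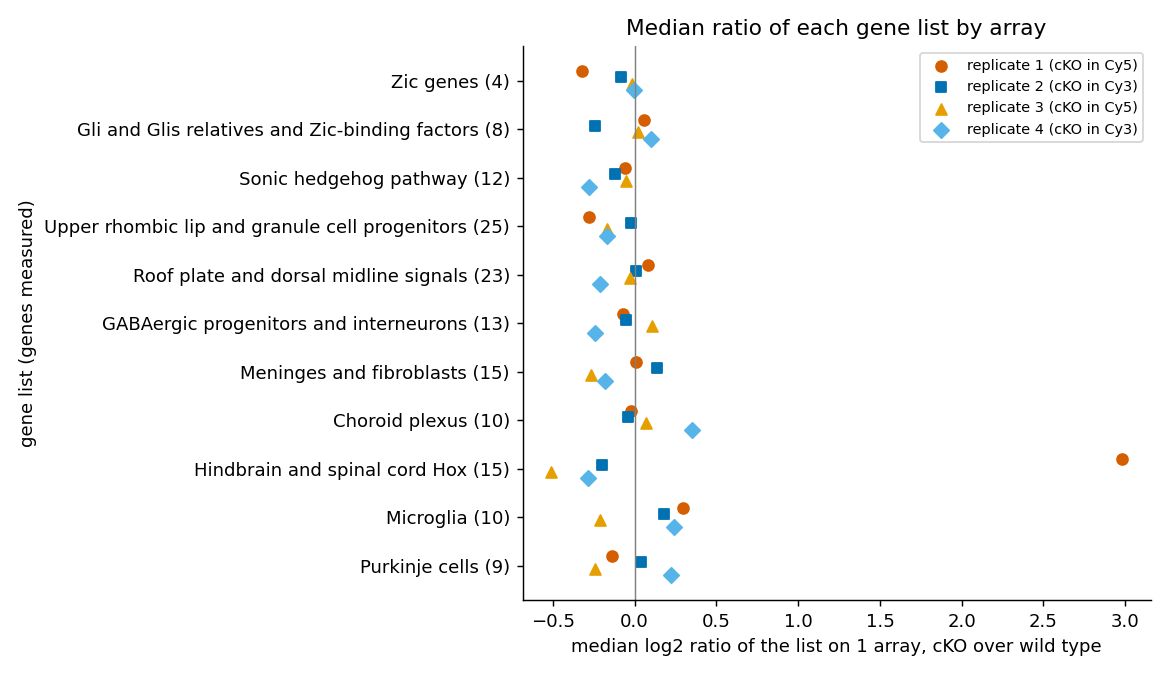
Median log2 ratio of cKO over wild type on each array (horizontal axis; 1 point per array) for the Zic genes and the 10 fixed gene lists (vertical axis, with the number of genes measured). The Hox list on replicate 1, at 2.98, lies far from all other points. The median of the Zic genes is lowest on replicate 1, at -0.32, though Zic1 and Zic4 themselves were lowest on other arrays.

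A search for genes with the most similar pattern over the 4 arrays, by the root mean square difference of the 4 ratios, found close matches for every Zic gene among 12791 genes with a current name. With so many genes searched over 4 values, a close match is no sign of a shared role. The number of matches fell as the SD over the arrays rose, from 0.07 for Zic1 to 0.54 for Zic5. The nearest to Zic1 were Casp9, Gsk3b and Ethe1, at differences of 0.0178, 0.0336 and 0.0371, and 81 genes lay within 0.1. Atf7ip, Isl1 and 1700016K19Rik were nearest to Zic2, at 0.0268, 0.0447 and 0.0497, with 34 genes within 0.1. For Zic4 they were Lactb, Pbx2 and Ddx46, at 0.0447, 0.045 and 0.0473, with 46 genes within 0.1. Zic5 had fewer genes like it, 9 within 0.1, and the nearest were Tgm3, A330009N23Rik and Grm8 at 0.0636, 0.0648 and 0.0678. Among the Zic genes themselves, the neighbours Zic1 and Zic4 were nearest to each other, at 0.151, though 81 other genes lay within 0.1 of Zic1 and 46 of Zic4. The neighbours Zic2 and Zic5 differed by 0.353, more than Zic2 did from Zic1, at 0.233, or from Zic4, at 0.322.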

How the data were processed

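RNA of cKO and wild-type cerebella was hybridised to 4 two-colour arrays after labelling with a dendrimer kit, per the labels. The authors deposited log ratios, 1 for each feature on each array, read here as log2, and how they normalized it is not given in the sources used here. A base of 10 would give the largest ratio, 10.27, a size no scanner reaches, and a natural log would put every fold here too close to 1. Scanner intensities were not used here, so dim features could not be filtered.

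Each array was centred on its median. Features of a symbol were averaged (30457 features, 21476 symbols), and names were updated through RefSeq for GRCm38.p6. Genes were fitted with limma 3.58.1 in R 4.3.3 (intercept, null value 0, two-sided), with a correlation of 0.5 between arrays that share an RNA sample. Replicate 4 then has a weight of 0 in the estimate and still enters the error. The estimate thus takes more from arrays with cKO RNA in Cy5 than from arrays with cKO RNA in Cy3. That correlation is a value assumed from the shared samples: over all features the ratios of replicates 1 and 4 correlated at -0.121 and those of replicates 3 and 4 at -0.199, each pair with cKO RNA in opposite dyes. p-values were adjusted by Benjamini-Hochberg over all genes and called under 0.05. The fit was tested on data simulated with the same assumed correlation and no dye effect, which cannot show that the assumption holds for these arrays.

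The members and gene lists were chosen with earlier results of these data known, so no p is given over a list. The lists covered Gli relatives and Zic partners, Sonic hedgehog signalling, rhombic lip and granule cells, roof plate, GABAergic cells, meninges, choroid plexus, Hox genes, microglia and Purkinje cells. Named genes were the Zic features, Gli2, Gli3, Atoh1, Pax6, Barhl1, Neurod1, the highest and lowest member of each list, and the 3 genes nearest in pattern to each Zic gene. Genes named outside that rule were chosen after their values were seen. Alternatives covered direction, dye, centring, scale, features, names and single arrays.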

Additional observations from a re-analysis of the deposited data

Results flagged for a closer look

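Of 44 sets of 4 array values examined, 3 held 1 array far from the other 3. Chance would give 2.2 for independent sets not picked by their values. These sets overlapped, and some were picked as the highest or lowest gene of a list, as Hoxa5 was, so 2.2 is only a rough guide. The median of the Hox list was 2.98 on replicate 1, against -0.20, -0.51 and -0.285 on replicates 2 to 4. Its member Hoxa5 had 5.41 on replicate 1, against -0.54, -0.64 and -0.21. Gli3 had -0.59 on replicate 2, against 0.09, 0.07 and 0.01 on replicates 1, 3 and 4. No Zic feature was among the 3. Zic5 came nearest, since the gap between replicate 1 and the next array made up 0.818 of its whole range.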

How the results depend on the processing

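No Zic gene was called in any alternative run (lowest limma p 0.245, lowest adjusted p 0.987). Zic1, Zic2 and Zic4 were below 0 with dye-flip columns turned, with arrays as independent, with arrays scaled to 1 spread and without replicate 1, 2 or 3. Zic5 was below 0 in these too, except without replicate 1, where it had 0.25. Some alternatives could not move these ratios. Replicate 4 has no weight in the estimate, the dye term gives the estimate of independent arrays, and settings on features cannot change a gene with 1 feature. Leaving out 1 array gave -0.16 to -0.135 for Zic1, -0.195 to -0.03 for Zic2, -0.28 to -0.10 for Zic4 and -0.315 to 0.25 for Zic5. With dye-flip columns turned the ratios of Zic1, Zic2, Zic4 and Zic5 were -0.02, -0.13, -0.14 and -0.28. The median of the 4 Zic genes, -0.15, lay between -0.24 and -0.085 in fits on 3 arrays. Without the call on adjusted p, 337 genes of all had an unadjusted p under 0.05 and 0 Zic genes did. Those genes numbered 1061 with arrays as independent and 1074 when dye was a term. Leaving out replicate 4 gave 995 such genes and leaving out replicate 2 gave 146. Genes called by adjusted p numbered 0 in every setting run. With dye-flip columns turned, the median was 0.10 for the Gli and partner list and -0.03 for the Sonic hedgehog list. Leaving out an array gave medians of -0.12 to 0.057 for the Gli and partner list, -0.14 to 0.0004 for the Sonic hedgehog list, -0.085 to 0.075 for the roof plate list and -0.17 to 0.30 for the microglia list. Those medians were -0.13 to 0.11 for the meninges list, 0.05 to 0.19 for the choroid plexus list and -0.17 to 0.08 for the Purkinje cell list, and the meninges list had -0.14 with dye-flip columns turned. Causes were not tested. Each ratio is a difference within an array, so the genotypes are paired by array in every fit. The fitted ratio of Pax6, -0.59, lies within the 95% intervals of all 4 Zic genes. That of Neurod1, -0.95, lies within the interval of Zic5 and below those of Zic1, Zic2 and Zic4.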
